A study of Homo sapiens with 5 samples.

Results

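The regions described here are the Nrf2 and HIF1α ChIP-seq peaks of untreated BEAS-2B cells, a line of bronchial epithelium from the human lung that was made immortal for culture. They were chosen by library name, as all intervals of the Nrf2 control library and of the HIF1α control library, and number 9212 of the 29781 intervals in the 4 ChIP libraries. The Nrf2 control library holds 3204 of them and the HIF1α control library 6008. All cells were starved of serum overnight. The control cells then received no arsenite (iAs), while 1 μM iAs was given for 6 h to the cells of the other 2 libraries, which are used here only as a second readout at the control sites. There was 1 library per antibody and condition, all from a single line. The labels name an antibody from Santa Cruz for Nrf2 and one from Abcam for HIF1α, and the methods name Active Motif for both.

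The intervals hold positions and no heights, so the depth behind a peak is unknown, and more sites in one list cannot be told apart from a better antibody or a deeper library. With 1 library per factor no difference between the factors could be tested over cultures. Shares are given with Wilson 95% intervals, which cover the counting of peaks in these libraries only. Binding positions do not show expression, so the cell type was not checked against markers. Of 12 epithelial and mesenchymal genes, 1 had an Nrf2 peak in or within 10 kb of it (8.33%, with 10.6% of all genes) and 3 a HIF1α peak (25%, with 29.0% of all genes), shares near those of all genes.

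Nrf2 is a transcription factor of the oxidant response that is held at a low level by KEAP1 and pairs with small MAF proteins on the antioxidant response element (ARE). Some forms of the ARE contain the element of AP-1, the family of FOS and JUN proteins, so the sites of the 2 systems can resemble each other. HIF1α is the oxygen-regulated subunit of the hypoxia-inducible factor. It is hydroxylated and degraded when oxygen is plentiful, and with its partner ARNT it reads the short core of the hypoxia response element (HRE).

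The elements searched were TGACTCAGC, called the ARE core here, TGAGTCA or TGACTCA, called the AP-1 element, and ACGTG or GCGTG, called the HRE core. They were read on both strands. Every ARE core holds an AP-1 element, and ACGTG alone was counted as well. The sequences below were read from hg19, with the strand shown in brackets. They were picked from sites that hold the element, so they show its form and not how often it occurs. In windows of 201 bp at peak centres the ARE core stood at 12.7% of shared and 28.1% of Nrf2-only sites. ACGTG stood at 24.5% of HIF1α-only sites. The ARE cores printed for SLC16A3, NQO1, FTH1, FTL and ME1 lie 189 to 342 bp from the centres of their Nrf2 peaks. They fall outside those windows, so these peaks were not counted as holding the core. The first set comes from shared sites, where an Nrf2 and a HIF1α peak overlapped, and capitals mark the ARE core nearest to the centre of the Nrf2 peak. At GPI the core shown lies beyond the end of the HIF1α peak, and at GCLC it runs past that end.
ALDOA, chr16:30076786-30076814 (-): tggggcgccgTGACTCAGCcagaatgttg
GPI, chr19:34850486-34850514 (+): ccggtcaacaTGACTCAGCatcctcggtg
SLC16A3, chr17:80175689-80175717 (-): ccgcagccagTGACTCAGCactgagaact
NQO1, chr16:69760900-69760928 (-): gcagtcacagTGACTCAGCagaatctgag
GCLC, chr6:53413037-53413065 (+): cgcctccccgTGACTCAGCgctttgtgcg
FOSL1, chr11:65666847-65666875 (+): acgccccgggTGACTCAGCcgccgtgact

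The second set comes from Nrf2 peaks with no HIF1α peak on them. Capitals again mark the ARE core nearest to the peak centre.
HMOX1, chr22:35773139-35773167 (-): gaggcactggTGACTCAGCaaaatctagc
GSTP1, chr11:67351207-67351235 (+): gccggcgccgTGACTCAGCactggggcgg
FTH1, chr11:61739505-61739533 (+): tgtcccaccgTGACTCAGCactctgctag
FTL, chr19:49467189-49467217 (+): gagctcagcaTGACTCAGCagtcgctgcc
ME1, chr6:84140889-84140917 (-): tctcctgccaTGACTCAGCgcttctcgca
EGLN3, chr14:34420852-34420880 (-): caatcagataTGACTCAGCatttcttcat

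The third set comes from HIF1α peaks with no Nrf2 peak on them, at genes of glycolysis and of the hypoxia response. Capitals mark the ACGTG form of the HRE core nearest to the peak centre.
LDHA, chr11:18416025-18416053 (-): gggggccggcggACGTGcgggaacccacg
PGK1, chrX:77359531-77359559 (+): gcggcgtgccggACGTGacaaacggaagc
PDK1, chr2:173420798-173420826 (-): ctgccgagtggtACGTGagggacgtggcg
ENO2, chr12:7023614-7023642 (+): acccgcgctcgtACGTGcgcctccgccgg
ANKRD37, chr4:186317517-186317545 (+): agtttcctggttACGTGcgcgccggcaga
P4HA1, chr10:74856694-74856722 (+): gcagccctcgctACGTGagctcgatcaca

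Longer stretches of 121 bases show how the elements combined at 3 shared sites outside promoters. Capitals here mark every ARE core, AP-1 element and HRE core on either strand. The HMOX1 stretch held 2 ARE cores, the SLC2A1 stretch held 1 AP-1 element and 1 HRE core, and the TXNRD1 stretch, in an intron, held 1 AP-1 element that was not part of an ARE core.
HMOX1, chr22:35768044-35768164 (+): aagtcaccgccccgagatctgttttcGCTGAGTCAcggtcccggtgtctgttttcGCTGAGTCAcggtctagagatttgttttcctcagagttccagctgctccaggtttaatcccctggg
SLC2A1, chr1:43406782-43406902 (+): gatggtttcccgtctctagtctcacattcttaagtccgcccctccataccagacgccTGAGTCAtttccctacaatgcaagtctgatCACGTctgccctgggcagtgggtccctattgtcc
TXNRD1, chr12:104613482-104613602 (+): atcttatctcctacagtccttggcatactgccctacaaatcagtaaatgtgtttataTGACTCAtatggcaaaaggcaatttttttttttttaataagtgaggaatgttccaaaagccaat

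Nrf2 and HIF1α overlapped at a minority of the sites of either factor in untreated cells. An overlap of at least 1 bp made 888 of the 3204 Nrf2 peaks shared, or 27.7% (26.2 to 29.3%). On the other side 892 of the 6008 HIF1α peaks were shared, or 14.8% (14.0 to 15.8%). Joined into sites, the lists gave 8316, of which 884 were shared (10.6%), 2316 held Nrf2 only (27.8%) and 5116 held HIF1α only (61.5%). The Nrf2 list covered 0.0388% of the genome and the HIF1α list 0.0602%. The unequal length of the lists bears on the shares, since with the 3204 widest peaks of each list the shared share was 17.4% for Nrf2 and 17.3% for HIF1α.

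Where the factors overlapped, the centres of their peaks were mostly close together. Pairs were chosen by an overlap of at least 1 bp, which by itself keeps the centres of narrow peaks near each other. The 896 overlapping pairs had centres a median of 55.8 bp apart, and 817 pairs (91.2%) had centres within 200 bp. In 501 pairs (55.9%) the narrower peak lay wholly inside the wider, and 11 pairs overlapped by less than 50 bp. The Nrf2 peak was the wider in 544 pairs and the HIF1α peak in 351, with 1 pair equal.

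Few sites of a single factor lay within 1 kb of the other factor. The gap from an Nrf2-only peak to the nearest HIF1α peak had a median of 85.6 kb, with 106 of 2316 peaks within 1 kb (4.58%). From a HIF1α-only peak to the nearest Nrf2 peak the median was 169.8 kb, with 105 of 5116 within 1 kb (2.05%). Few single-factor peaks thus had a peak of the other factor just beyond their ends. Lists this sparse leave long gaps by spacing alone, and the gaps were not compared with those of peaks placed at random.

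Shared peaks were wider than the other peaks of the same library. The median width of an Nrf2 peak was 346 bp at shared sites (335 to 362) and 298 bp at Nrf2-only sites (293 to 304). For HIF1α the medians were 306 bp (294 to 320) and 272 bp (268 to 276). In both libraries these intervals did not overlap. The shared share of Nrf2 peaks was 21.5% in the narrowest width quartile (189 to 236 bp) and 36.3% in the widest (447 to 1985 bp). For HIF1α it was 11% (190 to 221 bp) and 20.3% (363 to 2258 bp). A wider peak also has more room to overlap another, and the part of width in the sharing was not tested.

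The chromosomes differed in how much was shared. Chromosome 20 had the highest share of Nrf2 peaks on a HIF1α peak, 47 of 117 (40.2%, 31.7 to 49.2%). Chromosome 14 had the lowest, 4 of 58 (6.90%, 2.71 to 16.4%). For HIF1α peaks the lowest share was again on chromosome 14, with 4 of 66 (6.06%, 2.38 to 14.6%). The highest was on chromosome 5, with 83 of 414 (20.0%, 16.5 to 24.2%), and chromosomes 22 (19.7%) and 8 (19.4%) were close to it. These are the ends of the range over all chromosomes.

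The kinds of sites lay in different places relative to genes. HIF1α-only peaks were concentrated at transcription start sites (TSS), with the centres of 2882 of 5116 (56.3%, 55.0 to 57.7%) within 1 kb of a protein-coding TSS. Nrf2-only peaks were mostly far from them, with 221 of 2316 (9.54%, 8.41 to 10.8%) within 1 kb. Shared sites lay between, with 236 of 888 (26.6%, 23.8 to 29.6%) by the centre of the Nrf2 peak and 235 of 892 (26.3%) by that of the HIF1α peak. The median distance to a TSS was 0.339 kb for HIF1α-only, 22.6 kb for shared and 34.7 kb for Nrf2-only peaks.

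**Figure D1:**
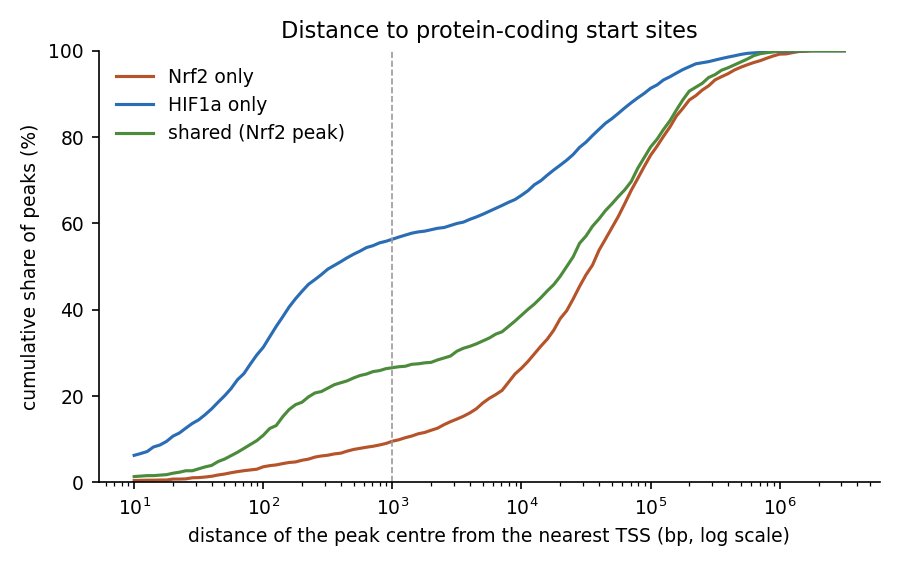
Cumulative share of peaks (y axis, %) by distance of the peak centre from the nearest protein-coding TSS (x axis, bp, log scale), with 1 line for each kind of site and a dashed line at 1 kb. At that line HIF1α-only peaks stood at 56.3%, shared Nrf2 peaks at 26.6% and Nrf2-only peaks at 9.54%.

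The position within genes followed the same order. Promoters, taken as the 3 kb upstream of a TSS, held 46.6% of HIF1α-only, 24.7% of shared and 9.67% of Nrf2-only centres. Introns held 20.6%, 29.7% and 43.0%, and 23.5%, 43.2% and 45.0% lay outside protein-coding genes and their promoters. The 5′-UTR held 5.84% of HIF1α-only centres, 1.01% of shared and 0.518% of Nrf2-only centres. The intervals of HIF1α-only sites overlapped those of no other kind in any of these 4 classes, whereas for the class outside genes those of shared (40.0 to 46.5%) and Nrf2-only sites (43.0 to 47.1%) did.

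Read from the side of each library, closeness to a TSS went with more sharing for Nrf2 and with less for HIF1α. Of 457 Nrf2 peaks within 1 kb of a TSS, 51.6% (47.1 to 56.2%) were shared, against 23.7% (22.2 to 25.4%) of 2747 farther away. Of 3117 HIF1α peaks within 1 kb, 7.54% (6.66 to 8.52%) were shared, against 22.7% (21.2 to 24.3%) of 2891 farther away. Shared peaks pair across the lists, with 236 Nrf2 and 235 HIF1α peaks near a TSS and 652 and 657 farther away, so a share on one side differs from that on the other by the number of peaks each list has there.

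**Figure D2:**
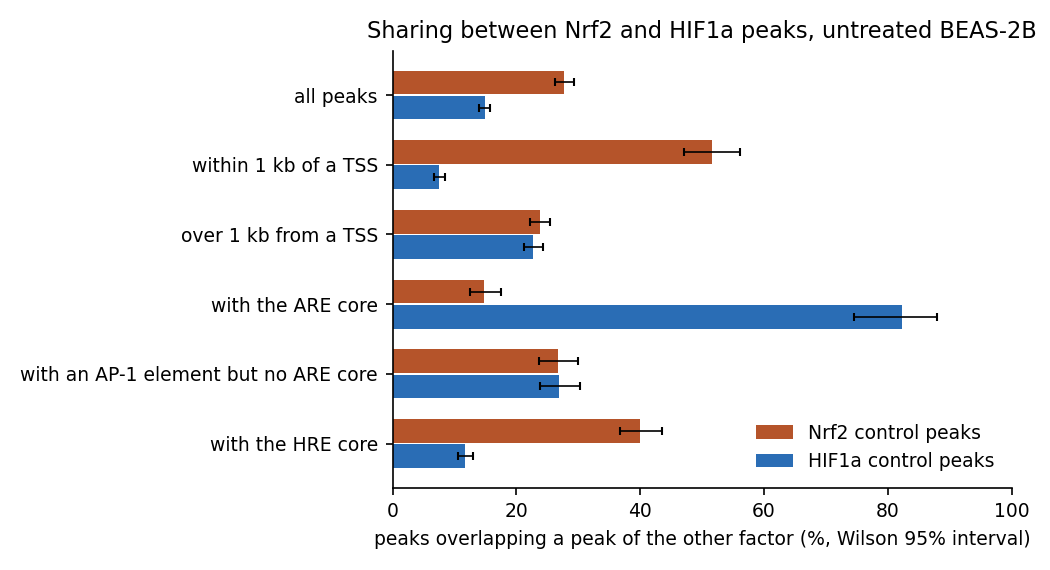
Share of the Nrf2 and of the HIF1α control peaks that overlapped a peak of the other factor (x axis, %), for all peaks and for those with the position or element named on the y axis, with Wilson 95% intervals as error bars. HIF1α peaks with the ARE core were shared in 82.3%, and Nrf2 peaks with it in 14.8%.

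The elements under the centres also set the kinds of sites apart. In windows of 201 bp, the ARE core was present at 28.1% of Nrf2-only (26.3 to 29.9%), 12.7% of shared (10.7 to 15.1%) and 0.430% of HIF1α-only centres (0.284 to 0.650%). The last share was 0.968% when sharing required a reciprocal overlap of 50%, and 0.264% with equal numbers of the widest peaks. The AP-1 element stood at 52.4%, 35.8% and 11.1% of these centres, against 3.24%, 3.72% and 3.42% of the same windows moved by 5 kb. The ARE core stood at 0.0864%, 0.450% and 0.293% of those moved windows. A looser ARE pattern, TGACNNNGC, which every ARE core matches, stood at 47.3%, 29.6% and 10.7%, against 6.52%, 7.21% and 6.998% in the moved windows. The share of all 19465 canonical TSS windows was 0.252% for the ARE core, 2.13% for the AP-1 element and 10.04% for the looser pattern.

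For the HRE core the order was the opposite. It stood at 49.5% of HIF1α-only (48.1 to 50.8%), 35.9% of shared (32.8 to 39.1%) and 20.6% of Nrf2-only centres (19.0 to 22.3%), against 23.8%, 24.5% and 19.7% in the moved windows and 43.5% in all TSS windows. The ACGTG form alone stood at 24.5%, 17.1% and 9.11%, with 15.9% in all TSS windows. The interval of Nrf2-only centres included the moved value for the HRE core. Base composition moved with these shares, at a mean GC content of 60.0% for HIF1α-only, 52.2% for shared and 46.2% for Nrf2-only windows, and its part in the HRE core counts was not tested.

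The same order held for peaks at and away from start sites. Within 1 kb of a TSS the AP-1 element stood at 26.2% of Nrf2-only (20.9 to 32.4%), 8.47% of shared (5.55 to 12.7%) and 2.26% of HIF1α-only centres (1.77 to 2.86%), the last close to the 2.13% of all TSS windows. Farther away it stood at 55.2%, 45.7% and 22.6%. The HRE core stood at 40.7%, 50.8% and 58.4% within 1 kb, and at 18.5%, 30.5% and 37.9% farther away. Near start sites the HRE core interval of shared centres (44.5 to 57.2%) overlapped those of Nrf2-only (34.5 to 47.3%) and HIF1α-only centres (56.6 to 60.2%).

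**Figure D3:**
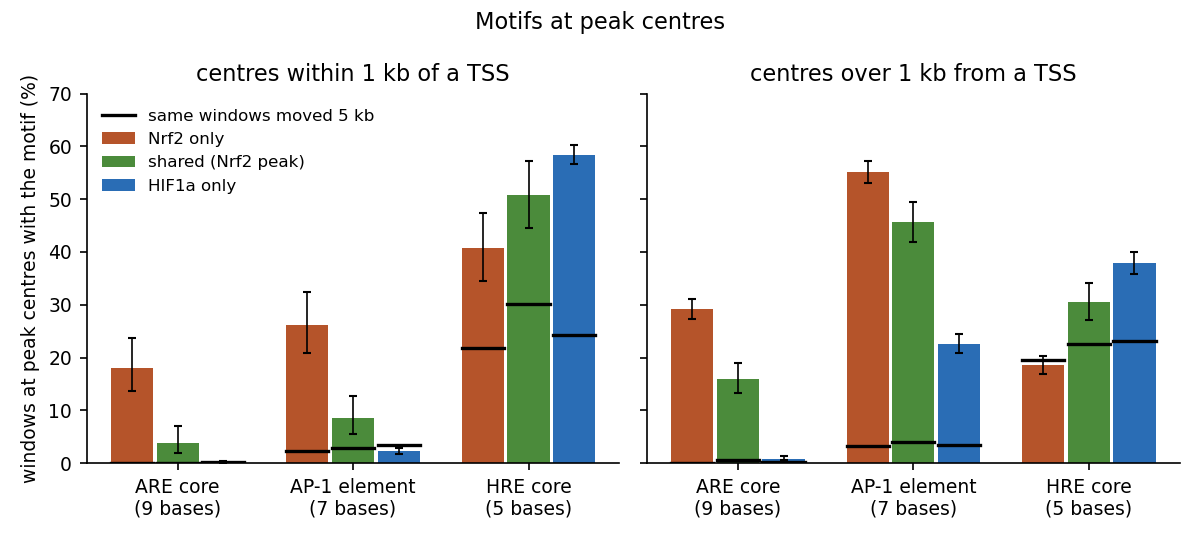
Share of 201-bp windows at peak centres with the ARE core, the AP-1 element or the HRE core (y axis, %), for Nrf2-only, shared and HIF1α-only sites, within 1 kb of a TSS (left) and farther away (right), with Wilson 95% intervals and, as black lines, the same windows moved by 5 kb. The ARE core and the AP-1 element were most frequent at Nrf2-only sites and the HRE core at HIF1α-only sites in both panels.

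An AP-1 element was more often part of an ARE core at Nrf2-only sites. Among windows with the AP-1 element, 650 of 1214 Nrf2-only (53.5%, 50.7 to 56.3%), 113 of 318 shared (35.5%, 30.5 to 40.9%) and 22 of 570 HIF1α-only windows (3.86%, 2.56 to 5.77%) held the ARE core. The TXNRD1 stretch above shows an AP-1 element without the ARE ending. That element lies 161 bp from the centre of the Nrf2 peak, outside the counted window. Both an AP-1 element and an HRE core, as in the SLC2A1 stretch, were found in 12.2% of shared (10.2 to 14.5%), 10.7% of Nrf2-only (9.51 to 12.03%) and 4.05% of HIF1α-only windows (3.54 to 4.62%). The first 2 of these intervals overlapped.

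Few HIF1α peaks held the ARE core, and most of those were shared. Of 124 such HIF1α peaks, 102 overlapped an Nrf2 peak (82.3%, 74.6 to 88.0%), against 790 of 5884 without it (13.4%, 12.6 to 14.3%). In the Nrf2 list the ARE core went with less sharing, at 113 of 763 peaks with it (14.8%, 12.5 to 17.5%) and 775 of 2441 without it (31.7%, 29.9 to 33.6%). This remained among Nrf2 peaks over 1 kb from a TSS, at 14.6% (12.2 to 17.3%) of 714 with and 27.0% (25.1 to 28.9%) of 2033 without it. Of the peaks with an AP-1 element but no ARE core, 205 of 769 Nrf2 peaks (26.7%) and 202 of 750 HIF1α peaks (26.9%) were shared. Nrf2 peaks with the HRE core were shared in 40.0% of 797 cases (36.7 to 43.5%), against 23.6% of 2407 without it (21.98 to 25.4%).

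The nearest AP-1 element lay closer to the centres at Nrf2 peaks, and the nearest HRE core at HIF1α-only peaks. Among centres with a match within 500 bp, the nearest AP-1 element was a median of 46.0 bp from Nrf2-only, 55.0 bp from shared Nrf2 and 93.0 bp from HIF1α-only centres. The nearest HRE core was 171 bp, 116 bp and 78.0 bp away. A more frequent element has a nearer match by number alone. These distances were not measured in moved windows, so the part of frequency in them was not tested. No AP-1 element, looser ARE pattern or HRE core was found in 25.5% of Nrf2-only, 32.7% of shared and 39.7% of HIF1α-only windows, which says only that these letters were not in those windows.

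The iAs libraries gave a second readout at the control sites. An Nrf2 peak of iAs-treated cells was present at 94.6% of Nrf2-only and 94.6% of shared Nrf2 peaks, and at 19.6% of HIF1α-only peaks (18.5 to 20.7%). A HIF1α peak of iAs-treated cells was present at 37.8% of shared (34.7 to 41.1%), 5.87% of Nrf2-only and 56.5% of HIF1α-only peaks (55.2 to 57.9%). The iAs lists are longer, with 7743 Nrf2 and 12826 HIF1α peaks. These values moved with the overlap asked for. At a reciprocal overlap of 50% the Nrf2 values were 56.6%, 70.9% and 14.3% for Nrf2-only, shared and HIF1α-only peaks, and the HIF1α values 2.68%, 19.9% and 32.5%.

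Most shared sites without a HIF1α peak in the iAs library lay away from start sites. Within 1 kb of a TSS, 84.7% of the 236 shared sites (79.6 to 88.8%) had a HIF1α peak in the iAs library, and farther away 20.9% of 652 (17.9 to 24.1%). HIF1α-only peaks gave 83.2% (81.8 to 84.5%) and 22.2% (20.5 to 23.9%), with intervals that overlapped those of the shared sites in either position. The 552 shared sites without a HIF1α peak in the iAs library held the AP-1 element in 44.9% (40.8 to 49.1%) and the HRE core in 29.5% (25.9 to 33.5%). The 336 with such a peak held them in 20.8% (16.8 to 25.5%) and 46.4% (41.2 to 51.8%).

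**Figure D4:**
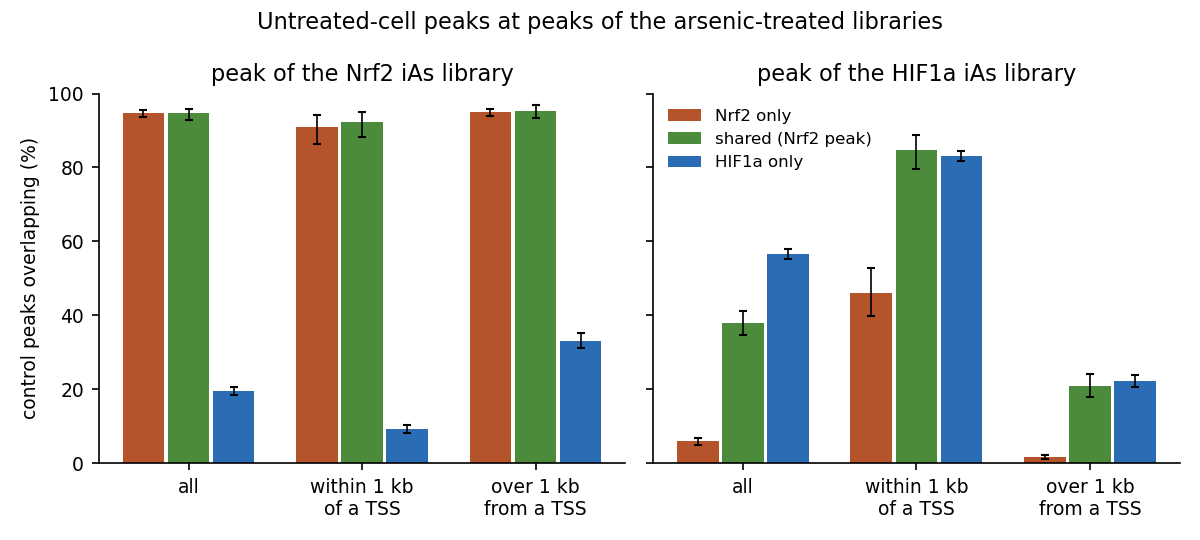
Share of control peaks (y axis, %) that overlapped an Nrf2 peak (left) or a HIF1α peak (right) of the iAs libraries, for Nrf2-only, shared and HIF1α-only sites, all together and by distance from a TSS, with Wilson 95% intervals. Shared sites within 1 kb of a TSS had a HIF1α peak in the iAs library in 84.7%, and those farther away in 20.9%.

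Some sites of a single factor in control cells held the other factor in the iAs library. The 1003 HIF1α-only peaks at an Nrf2 peak of iAs-treated cells held the AP-1 element in 24.5% (21.96 to 27.3%) and lay within 1 kb of a TSS in 26.2% (23.6 to 29.0%). The other 4113 held it in 7.88% (7.09 to 8.74%) and lay there in 63.7% (62.2 to 65.1%). The 136 Nrf2-only peaks at a HIF1α peak of iAs-treated cells lay within 1 kb of a TSS in 75% (67.1 to 81.5%), against 5.46% of the other 2180.

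At the level of genes the lists met more often than at the level of sites. A peak counted for a protein-coding gene when it lay in the gene or within 10 kb of it. Of 20163 genes, 2142 had an Nrf2 peak (10.6%), 5842 a HIF1α peak (29.0%), 1302 peaks of both factors (6.46%) and 801 a shared site (3.97%). Genes with both made up 60.8% of the Nrf2 genes and 22.3% of the HIF1α genes. At 501 genes both factors were present with no shared site, 840 genes had Nrf2 only and 4540 HIF1α only. Genes with a shared site numbered 1580 within 50 kb, and with equal numbers of the widest peaks they numbered 531 and the HIF1α-only genes 2829. Longer genes hold more peaks by their length, and the median gene spanned 90.6 kb where both factors stood apart, 68.7 kb with Nrf2 only, 44.05 kb with a shared site and 29.2 kb with HIF1α only.

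The listed genes are read against those shares of all genes. Of the 10 partners and regulators of Nrf2, 8 had an Nrf2 peak (10.6% of all genes), 7 a HIF1α peak (29.0%) and 6 a shared site (3.97%). The 6 were NFE2L2, which encodes Nrf2, KEAP1, its inhibitor, MAFK, a small MAF partner, BACH1, a repressor that competes for the same sites, SQSTM1, which binds KEAP1, and OSGIN1, an Nrf2 target. At KEAP1 the Nrf2 peak was 1189 bp wide with its centre in the 5′-UTR, 0.619 kb downstream of the TSS, and 2 HIF1α peaks of 254 and 420 bp lay on it. At NFE2L2 an Nrf2 peak of 939 bp and a HIF1α peak of 367 bp overlapped 0.789 and 1.10 kb downstream of the TSS. At BACH1 an Nrf2 peak of 250 bp and a HIF1α peak of 275 bp overlapped 43.9 and 43.8 kb downstream of the TSS. Neither iAs library had a peak there, and none of the searched elements stood at the 2 centres. MAFG and BACH2 had Nrf2 peaks only, and MAFF a HIF1α peak only.

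**Figure D5:**
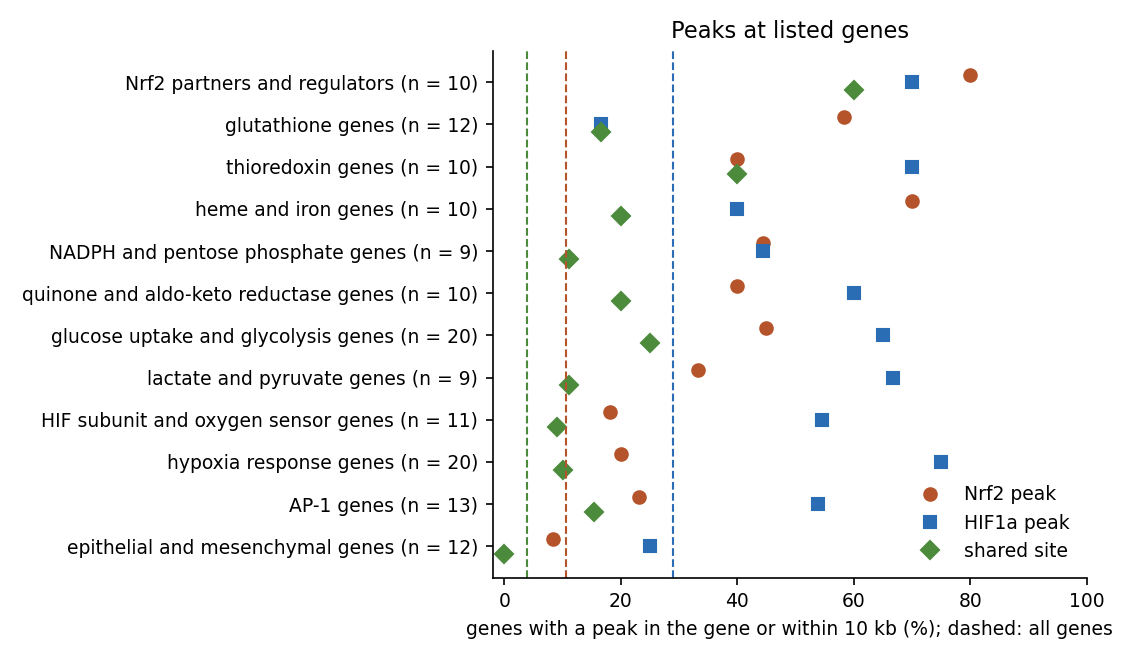
Share of the genes of each list (y axis, with the number of genes) that had an Nrf2 peak, a HIF1α peak or a shared site in the gene or within 10 kb (x axis, %), with dashed lines at the shares of all genes, 10.6%, 29.0% and 3.97%. Glutathione genes stood at 16.7% for HIF1α, and hypoxia response genes at 75% for HIF1α and 20.0% for Nrf2.

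The oxidant defence genes divided between both patterns. Of 12 glutathione genes, 7 had an Nrf2 peak (58.3%, with 10.6% of all genes). Of the 12, 2 had a HIF1α peak (16.7%, with 29.0% of all genes), a count too small to set these shares apart. A shared site was present at the same 2 (3.97% of all genes). Over all genes, 801 of the 5842 with a HIF1α peak had a shared site. These were GCLC, the catalytic subunit of the rate-limiting enzyme of glutathione synthesis, and ABCC1, an exporter of glutathione conjugates. At GCLC the shared site lay 3.16 kb upstream of the TSS, where an Nrf2 peak of 583 bp overlapped a HIF1α peak of 311 bp. GCLM, SLC7A11, GSR, GSTP1 and SLC3A2 had Nrf2 peaks only. GCLM is the other subunit of that enzyme, SLC7A11 and SLC3A2 form the cystine importer, GSR reduces oxidised glutathione and GSTP1 conjugates it.

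Of 10 thioredoxin genes 4 had Nrf2 peaks (10.6% of all genes), and the same 4 had a shared site (3.97% of all genes). Over all genes, 801 of the 2142 with an Nrf2 peak had a shared site. A HIF1α peak was present at 7 (29.0% of all genes). The 4 were TXN, thioredoxin itself, TXNRD1, its reductase, SRXN1, sulfiredoxin, and PRDX1, a peroxiredoxin. The TXNRD1 locus carried 9 Nrf2 peaks, the widest of 1808 bp, 3.82 kb downstream of the TSS, where 2 HIF1α peaks lay on it. At TXN, SRXN1 and PRDX1 the shared sites lay at the TSS, with Nrf2 centres 0.498, 0.402 and 0.191 kb upstream. PRDX6, TXNRD2 and TXN2 had HIF1α peaks only.

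Of 10 heme and iron genes 7 had an Nrf2 peak (10.6% of all genes) and 4 a HIF1α peak (29.0%). A shared site was present at 2 (3.97% of all genes). HMOX1, heme oxygenase, had a shared site 8.95 kb upstream of the TSS, with an Nrf2 peak of 433 bp and a HIF1α peak of 223 bp. Its wider Nrf2 peak, of 728 bp, lay 3.93 kb upstream with no HIF1α peak on it, and both sites hold ARE cores in the sequences above. ABCB6, a porphyrin transporter, was the second gene with a shared site. The ferritin genes FTH1 and FTL had Nrf2 peaks of 1181 and 1393 bp and no HIF1α peak, as did BLVRB, biliverdin reductase B, and FECH, ferrochelatase. TFRC, the transferrin receptor, had a HIF1α peak only.

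The genes that supply NADPH and reduce quinones were mixed. Of 9 genes of NADPH and the pentose phosphate pathway, 4 held Nrf2 peaks (10.6% of all genes) and 4 held HIF1α peaks (29.0%). TKT, TALDO1 and ME1 had Nrf2 peaks only, and PGD, IDH1 and RPE HIF1α peaks only. Of 10 quinone and aldo-keto reductase genes, 4 had an Nrf2 peak (10.6% of all genes) and 6 a HIF1α peak (29.0%). The 2 with a shared site (3.97% of all genes) were NQO1 and AKR1B10. At NQO1, a quinone reductase, an Nrf2 peak of 1787 bp overlapped a HIF1α peak of 224 bp 0.643 kb upstream of the TSS.

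Both factors had peaks among the genes of glucose uptake and glycolysis, more often at different genes than at the same one. Of 20, 9 had an Nrf2 peak (10.6% of all genes), 13 a HIF1α peak (29.0%) and 5 a shared site (3.97%). The 5 were SLC2A1, the glucose transporter GLUT1, and the enzyme genes GPI, ALDOA, GAPDH and ENO1. At ALDOA, aldolase A, an Nrf2 peak of 465 bp and a HIF1α peak of 660 bp had centres 0.318 and 0.345 kb upstream of the TSS. At GAPDH the widest HIF1α peak of the list, 2258 bp, spanned the TSS and met an Nrf2 peak of 420 bp whose centre lay 1.07 kb downstream of it. At ENO1, enolase, a HIF1α peak of 950 bp met an Nrf2 peak of 239 bp, while 2 more Nrf2 peaks, of 267 and 559 bp, had no HIF1α peak on them. At GPI the shared site lay between genes, 5.59 kb upstream.

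At SLC2A1 the shared site lay in an intron 17.6 kb downstream of the TSS, and the wider Nrf2 peak of 1146 bp, 16.8 kb downstream, was Nrf2 only. Of the glycolysis genes with no shared site, 1 had peaks of both factors (2.48% of all genes), 3 of Nrf2 only (4.17%) and 7 of HIF1α only (22.5%). The other 4, HK2, PFKM, ALDOC and PGAM1, had none (66.9% of all genes). PKM, pyruvate kinase, had an Nrf2 peak 6.25 kb upstream and 4 HIF1α peaks from 0.642 to 4.30 kb downstream, none of them shared. PFKP, a phosphofructokinase, and PFKFB3 and PFKFB4, which make its allosteric activator, had Nrf2 peaks only. SLC2A3, HK1, PFKL, TPI1, PGK1, ENO2 and ENO3 had HIF1α peaks only.

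Of 9 lactate and pyruvate genes 3 had an Nrf2 peak (10.6% of all genes) and 6 a HIF1α peak (29.0%). A shared site was present at 1 (3.97% of all genes). The shared gene was SLC16A3, the lactate exporter MCT4, with an Nrf2 peak of 908 bp and a HIF1α peak of 281 bp 11.4 and 11.3 kb upstream of its canonical TSS. LDHA, lactate dehydrogenase A, PDK1 and PDK3, kinases that inhibit pyruvate dehydrogenase, and SLC16A1, the lactate transporter MCT1, had HIF1α peaks only. The peaks of LDHA, PDK1 and PDK3 had centres within 0.07 kb of the TSS.

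More hypoxia genes had a HIF1α peak than an Nrf2 peak, and the same was true of all genes. Of 11 genes of HIF subunits and oxygen sensors, 2 had an Nrf2 peak (10.6% of all genes) and 6 a HIF1α peak (29.0%). A shared site was present at 1 (3.97% of all genes). EGLN3, a prolyl hydroxylase that marks HIF1α for degradation, had an Nrf2-only peak of 458 bp 0.558 kb upstream of its TSS, with the ARE core printed above, and a shared site 109 kb upstream. EGLN1, HIF1AN, HIF1A and CITED2 had HIF1α peaks only. Of 20 hypoxia response genes, 4 had an Nrf2 peak (10.6% of all genes) and 15 a HIF1α peak (29.0%). A shared site was present at 2 (3.97%), while 12 had HIF1α only (22.5% of all genes). ADM, the vasodilator adrenomedullin, shared a site 2.97 kb downstream of its TSS, with peaks of 545 and 678 bp. BNIP3, a mitophagy receptor, had an Nrf2 peak only, in an intron 1.86 kb downstream.

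The AP-1 genes themselves were read because their element stood at many of the sites. Of 13, 3 had an Nrf2 peak (10.6% of all genes), 7 a HIF1α peak (29.0%) and 2 a shared site (3.97%). FOSL1 had 2 shared sites, 0.970 kb downstream and 2.83 kb upstream of its TSS by the Nrf2 centres. ATF3 had 1, at 0.559 kb upstream. FOS, FOSL2, JUN, JUNB and JUND had HIF1α peaks only, and FOSB an Nrf2 peak only.

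The 5 widest shared sites, by the summed width of both peaks, included those nearest to GAPDH, SQSTM1 and TXNRD1, and all lay within 3.82 kb of a TSS. The 5 widest Nrf2-only peaks, from 1393 to 1705 bp, were nearest to DBNDD1, EXOC6, CBLB, IQCJ-SCHIP1 and FTL, at distances from 1.17 to 246 kb. The 5 widest HIF1α-only peaks, from 1028 to 1424 bp, included those nearest to AKT1S1, HCFC1, NOL8 and ANKRD37, and all lay within 0.447 kb of a TSS. An Nrf2 peak of the iAs library was present at all 10 of the widest shared and Nrf2-only sites and at none of the 5 HIF1α-only sites, which all had a HIF1α peak of the iAs library.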

How the data were processed

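Per the labels, reads were aligned with BWA, peaks were called with MACS2 2.1.0, and positions are on hg19. The methods describe tags down-sampled within a group and peaks called by MACS or SICER. The authors deposited start and end positions of peaks per library, with no heights or scores. Merged regions (21088) were left out, and the input library was not used here. Intervals were read as 1-based positions, grouped by library name, and compared in Python 3.11.15 with NumPy 2.4.6, SciPy 1.17.1 and pysam 0.24.0. bedtools 2.31.1 gave the same overlap counts. Sequences came from GRCh37 and genes from GENCODE release 44 on that build (20163 protein-coding genes and 63781 basic transcripts), with each centre in the first fitting class of promoter, 5′-UTR, exon, intron, 3′-UTR and outside genes. Noncoding genes were not counted, so a centre in one counts as outside. Distances at listed genes are from the canonical TSS. Shares near a TSS, median distances and the distances of the widest sites use the nearest TSS of any basic transcript. The 12 lists hold 146 genes, all matched.

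No test was run, since each factor had 1 library. Genes named were the 5 widest sites of each kind and genes of the lists with a peak, the widest in full, and the sequences were chosen from their sites. Some of these genes are not reported here. The sites and lists were chosen with earlier results of these data known. Overlap, motif and location steps were tested on simulated data. Figures were drawn with matplotlib 3.10.9. The alternatives tried are given in the closing section.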

Additional observations from a re-analysis of the deposited data

How the results depend on the processing

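Of 127 alternative values for 30 results, 74 stayed inside the interval of the value given above or, for gene counts, within 1.5 times of it, and 53 did not. The 3 kinds of sites are given below in the order shared, Nrf2-only and HIF1α-only. The order of the kinds by their share within 1 kb of a TSS and by each element was the same under every alternative run. No paired analysis was possible because each factor and condition had 1 library. The depth of the libraries is unknown, so nothing could be scaled by it.

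The shared share of Nrf2 peaks was 19.9% at a reciprocal overlap of 50%, 25.5% with centres within 200 bp, 31.0% with a gap of up to 1 kb, 19.6% with the wider 50% of each list and 17.4% with equal numbers of the widest peaks. For HIF1α peaks these values were 10.6%, 13.6%, 16.6%, 10.5% and 17.3%. A stricter overlap moves peaks from shared to single-factor sites. At 50% the median widths were 330 bp for shared and 305 bp for Nrf2-only Nrf2 peaks, 11.4% of Nrf2-only peaks lay within 1 kb of a TSS, the AP-1 element stood at 50.3% of Nrf2-only and 12.1% of HIF1α-only centres, and the ARE core at 0.968% of HIF1α-only centres. Nrf2 peaks of the iAs library then stood at 70.9%, 56.6% and 14.3%, and HIF1α peaks at 19.9%, 2.68% and 32.5%.

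With equal numbers of the widest peaks, HIF1α medians were 375 bp (shared) and 350 bp (only), 31.5% of shared and 63.5% of HIF1α-only peaks lay within 1 kb of a TSS, and 20.5% of HIF1α-only peaks lay outside genes. The AP-1 element stood at 31.7% of shared and 9.66% of HIF1α-only centres, the ARE core at 0.264% of HIF1α-only centres, and the HRE core at 22.4% of Nrf2-only and 51.5% of HIF1α-only centres. Genes with a shared site numbered 531 and those with HIF1α only 2829. HIF1α peaks of the iAs library stood at 47.3%, 7.89% and 68.3% of sites, and Nrf2 peaks at 22.3% of HIF1α-only sites.

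In whole peaks the ARE core stood at 17.2% of shared and 33.5% of Nrf2-only peaks, the AP-1 element at 46.2%, 63.0% and 13.8%, and the HRE core at 51.1%, 31.6% and 60.0%. In peaks of 200 to 400 bp the AP-1 element stood at 40.8%, 55.4% and 12.1%. With canonical transcripts, 7.38% of Nrf2-only and 52.8% of HIF1α-only peaks lay within 1 kb of a TSS, and with promoters of 1 kb, 24.9% of HIF1α-only peaks lay outside genes. Within 50 kb, 1580 genes had a shared site.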
